A study of Mus musculus with 18 samples.

Results

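The genes described here are 10 members of the tumour necrosis factor (TNF), NF-kB feedback and NR4A response, measured in phagocytes sorted from the mouse small intestine. They were Tnf, Tnfaip3, Nfkbia, Nr4a1, Nr4a2, Nr4a3, Zfp36, Dusp1, Socs3 and Il10. The members were the genes named on probes annotated to these symbols alone, and all 10 were measured, by 11 probes, among 22180 genes in all. No filter on low values was applied to any gene, so none of the 10 members was lost. All animals were VDTR mice, in which the villin promoter drives a fusion of the diphtheria toxin receptor and green fluorescent protein (GFP) in the gut epithelium. Every animal received diphtheria toxin by intraperitoneal injection at 2 ng per kg and was killed 4 h later, so the series holds no group without toxin. Live CD45+ CD11c+ MHCII+ cells were sorted into CD103+ CD24+ dendritic cells (DCs), CD103+ CD11b+ CD64+ macrophages and CD11b+ CD64+ macrophages, and each was divided by GFP. This gave 6 groups of 3 arrays, with both sexes in the labels and no age stated. The labels also give an n value of 4, which they do not explain, so pooling of animals cannot be told from them. GFP in a phagocyte marks epithelial material it has taken up, and the GFP-minus cells sorted beside it serve as the comparison. Whether replicates were separate mice is not stated in the labels, so a p-value here covers only the spread between samples, which may be technical.

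TNF binds its receptors and releases the transcription factor NF-kB, which then induces genes that shut the pathway down. Nfkbia encodes the inhibitor that holds NF-kB in the cytoplasm, and Tnfaip3 encodes A20, a ubiquitin-editing enzyme that ends receptor signalling. Zfp36 encodes tristetraprolin, which destabilises Tnf messenger RNA, and Dusp1 encodes a phosphatase that switches off p38 and JNK kinases. Interleukin 10, secreted by gut macrophages, restrains inflammatory genes through STAT3, while Socs3 is a STAT3 target that blocks receptor kinases. Nr4a1, Nr4a2 and Nr4a3 encode orphan nuclear receptors that are induced as immediate-early genes by many stimuli, in part through CREB sites in their promoters.

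The upstream sequences show 2 motif patterns within the set. RefSeq promoters (assembly GRCm38.p6) were held for 9 of the 10 members, with 2 start sites for Tnfaip3, and the 250 bases before each start were searched on both strands. GGGNNTTTCC, the only form of the kB motif searched, lay in the Nfkbia window and in 1 of the 2 Tnfaip3 windows. It is held by 1.41% of 32851 windows of the same length. The CREB half-site TGACG had 4 matches in each of the 3 Nr4a windows, and 0.137% of windows hold at least 4, while 17.8% hold at least 1. Dusp1 had 3 matches to the half-site, and 0.688% of windows hold at least 3; the Tnfaip3 window printed here had 1. The full site TGACGTCA, which contains the half-site on both strands, lay among the members in Dusp1 alone and in 1.55% of all windows. The 5 windows below are those with a kB match or with 4 half-sites, written 5′ to 3′ along the gene's strand. Capitals mark the kB match in Tnfaip3 and Nfkbia and the half-sites in the Nr4a genes, and the half-site at position -168 of Tnfaip3 is left in lower case. A half-site on the other strand reads CGTCA, and the kB motif on that strand reads as its reverse complement.
Tnfaip3, chr10:19015411-19015660, minus strand: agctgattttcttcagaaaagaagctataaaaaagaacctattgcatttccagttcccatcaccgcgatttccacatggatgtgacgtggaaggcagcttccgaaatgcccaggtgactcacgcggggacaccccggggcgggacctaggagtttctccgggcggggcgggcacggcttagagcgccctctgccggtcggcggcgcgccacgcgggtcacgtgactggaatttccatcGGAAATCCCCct
Nfkbia, chr12:55492648-55492897, minus strand: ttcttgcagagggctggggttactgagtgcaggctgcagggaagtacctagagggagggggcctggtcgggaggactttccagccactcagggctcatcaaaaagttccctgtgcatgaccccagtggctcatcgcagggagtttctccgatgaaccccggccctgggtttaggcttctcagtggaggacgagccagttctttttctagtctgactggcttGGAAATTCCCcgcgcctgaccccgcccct
Nr4a1, chr15:101266596-101266845, plus strand: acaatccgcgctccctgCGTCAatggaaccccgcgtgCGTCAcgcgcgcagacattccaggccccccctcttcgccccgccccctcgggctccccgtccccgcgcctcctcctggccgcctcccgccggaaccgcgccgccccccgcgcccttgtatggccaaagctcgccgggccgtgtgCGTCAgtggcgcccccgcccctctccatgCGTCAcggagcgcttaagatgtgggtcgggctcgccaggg
Nr4a2, chr2:57124004-57124253, minus strand: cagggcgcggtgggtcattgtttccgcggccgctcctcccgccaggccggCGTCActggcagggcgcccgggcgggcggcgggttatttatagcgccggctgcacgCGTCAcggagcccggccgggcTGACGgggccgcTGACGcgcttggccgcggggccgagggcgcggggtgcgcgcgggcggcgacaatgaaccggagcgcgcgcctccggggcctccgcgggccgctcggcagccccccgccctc
Nr4a3, chr4:48045055-48045304, plus strand: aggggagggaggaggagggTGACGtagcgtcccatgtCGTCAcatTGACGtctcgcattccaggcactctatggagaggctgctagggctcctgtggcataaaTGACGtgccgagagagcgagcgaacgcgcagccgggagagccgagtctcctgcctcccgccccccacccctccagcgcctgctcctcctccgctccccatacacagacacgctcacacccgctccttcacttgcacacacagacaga
The kB match began 12 bases before the start in Tnfaip3 (position -12) and at position -29 in Nfkbia. A match is a description of these letters, and binding was not measured.

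Values are on the log2 scale, relative to each probe's own median over the 18 arrays. They give differences between groups and no absolute level, so neither detection nor the level of one gene against another can be read from them. The sort was checked with marker genes. The mean of 9 dendritic cell markers lay between 2.22 and 2.65 on the 6 DC arrays and between -1.35 and 0.37 on the macrophage arrays. The mean of 9 macrophage markers lay between -4.68 and -3.50 on the DC arrays and between -0.10 and 1.06 on the macrophage arrays. The weights that limma estimates from each array's scatter ran without a clear break from 0.352 to 0.792 on 9 arrays and up to 2.52 on the others. The 4 lowest, 0.352 to 0.507, are called low-weight arrays here. They were replicate 1 of the GFP-plus DCs, replicate 2 of the GFP-minus and replicate 1 of the GFP-plus CD103 CD11b CD64 macrophages, and replicate 1 of the GFP-minus CD11b CD64 macrophages. The GFP-plus DC arrays had weights of 0.41, 0.66 and 0.62, and the GFP-minus DC arrays 0.64, 2.23 and 1.43. The interquartile ranges of all probe values were 0.58, 0.39 and 0.47 in GFP-plus DCs and 0.38, 0.28 and 0.29 in GFP-minus DCs. Array spread was thus wider with GFP in DCs, and its part in the DC results was not tested.

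**Figure D1:**
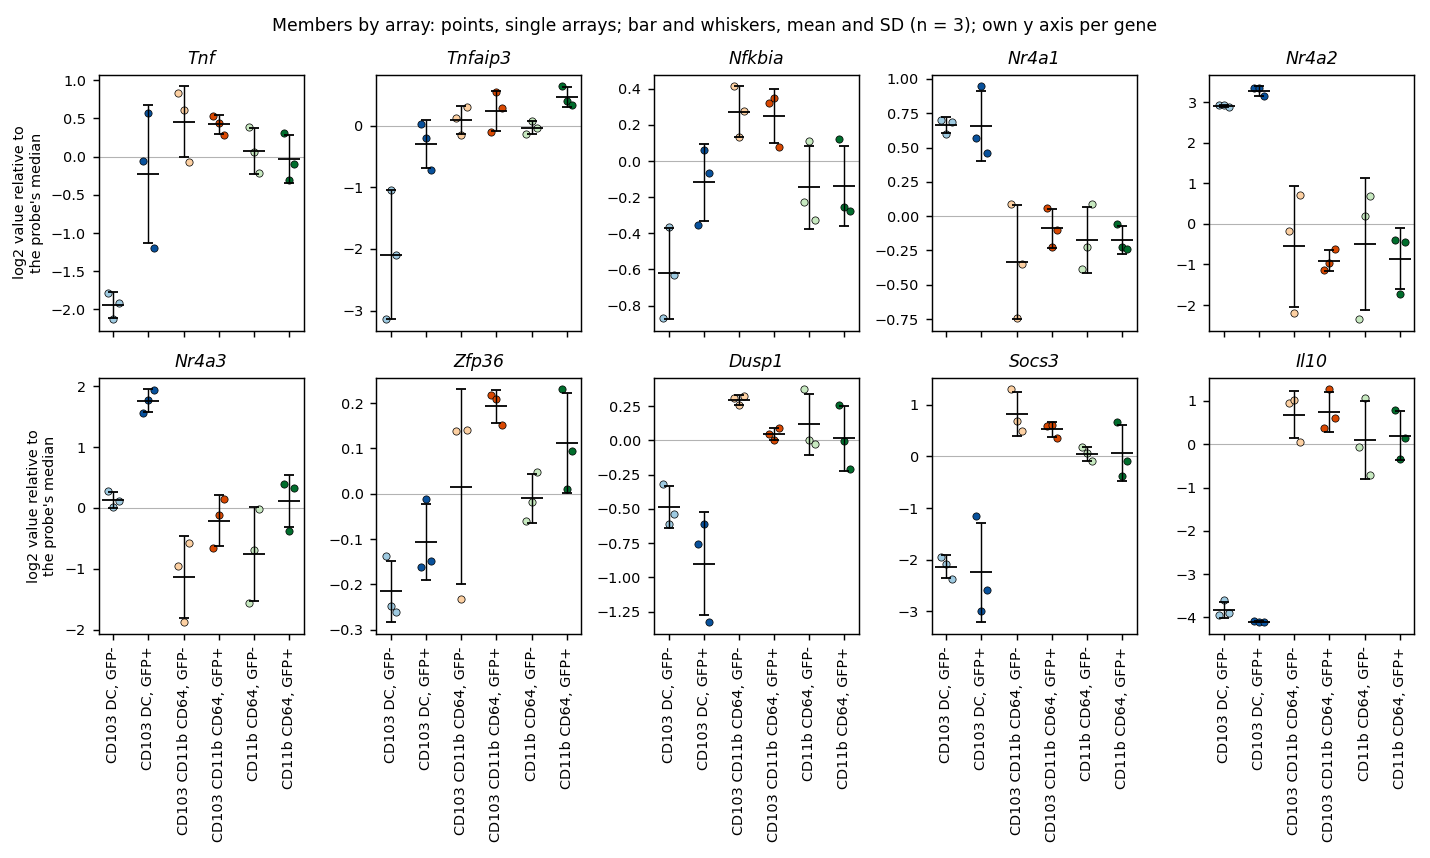
Log2 value relative to the probe's median (y axis, a separate scale for each gene) of the 10 members in the 6 groups (x axis); points are single arrays, and the bar and whiskers are the mean and SD of 3 arrays. GFP-minus DCs lie lowest for Tnf and Tnfaip3, and both DC groups lie far above the macrophages for Nr4a2 and far below them for Il10 and Socs3.

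The first question was whether DCs that held epithelial material differed from DCs of the same gate that did not. Tnf, Tnfaip3 and Nr4a3 were higher in GFP-plus DCs by 3.08-fold to 3.47-fold, and the other 7 members did not pass the test. Across all genes, 1.58% passed in this comparison, 72 of them higher and 279 lower. The members were chosen with earlier results of these data known. Member counts set beside shares of all genes, here and below, are therefore description and no independent support. The median log2 difference of the 10 members was 0.24, against -0.02 over all genes. After quantile normalization 24 genes passed as higher and 24 as lower.

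Tnf, the cytokine itself, lay at -1.79, -2.13 and -1.91 on the GFP-minus DC arrays and at -0.06, 0.57 and -1.20 on the GFP-plus DC arrays. All 3 GFP-plus arrays lay above all 3 GFP-minus arrays, with replicate 3 of the GFP-plus group closest to them. The log2 difference was 1.71 ± 0.35 (SE, n = 3 arrays per group; adjusted p = 0.0308, limma with Benjamini-Hochberg adjustment over all genes). Leaving out any of 3 arrays ended the call: the difference was 1.62 without GFP-minus DC replicate 2, 1.73 without GFP-minus DC replicate 3 and 1.63 without GFP-plus DC replicate 1. The call was also lost after quantile normalization (1.59) and without the 4 low-weight arrays (1.63). With only the 2 DC groups fitted, the difference of 1.71 had an adjusted p of 0.213, and over all alternatives the adjusted p ran from 0.0024 to 0.213.

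Tnfaip3, the A20 brake on TNF receptor signalling, lay at -3.14, -1.05 and -2.09 on the GFP-minus DC arrays and at 0.03, -0.20 and -0.73 on the GFP-plus ones. The arrays did not overlap, and the GFP-minus arrays were spread over more than the gap between the groups. The log2 difference was 1.79 ± 0.38 (SE; adjusted p = 0.0328 in limma). The call was lost without GFP-minus DC replicate 1 (1.27) or replicate 3 (1.79), without GFP-plus DC replicate 1 (1.63) and without GFP-plus CD11b CD64 macrophage replicate 2 (1.79). It was also lost with array weights, at a difference of 1.37, without the 4 low-weight arrays, at 1.63, and with only the DC groups fitted, at an adjusted p of 0.265. Over all alternatives its adjusted p ran from 0.0027 to 0.265.

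Nr4a3 lay at 0.28, 0.01 and 0.11 in GFP-minus DCs and at 1.56, 1.78 and 1.94 in GFP-plus DCs. The gap between the groups was wide beside the spread within each, and every DC array with GFP exceeded every other array of the series. The log2 difference of 1.62 ± 0.38 (SE) had an adjusted p of 0.0495 in limma, at the edge of the threshold. The call was kept in only 5 of the 18 fits that each left out 1 array, those without replicate 2 or 3 of the GFP-minus or replicate 1 of the GFP-plus CD103 CD11b CD64 macrophages, or without replicate 1 or 3 of the GFP-minus CD11b CD64 macrophages. It was also lost after quantile normalization (adjusted p = 0.0954), with each array centred on its median (0.0532), with all probes tested (0.0580) and with robust empirical Bayes (0.0547). The value stayed between 1.51 and 1.72 throughout, with adjusted p from 0.0125 to 0.150.

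The other 2 NR4A genes gave other values in the same cells. Nr4a1 lay at 0.70, 0.60 and 0.69 in GFP-minus DCs and at 0.57, 0.95 and 0.46 in GFP-plus DCs, so that the groups overlapped. Its log2 difference was -0.0024, with a 95% interval from -0.42 to 0.41. Nr4a2 lay at 2.93, 2.93 and 2.88 in GFP-minus DCs and at 3.34, 3.35 and 3.14 in GFP-plus DCs, without overlap. Its log2 difference of 0.36 did not pass, with a 95% interval from -1.19 to 1.92 that includes the size seen for Nr4a3. That interval uses the variance of all 6 groups, and the macrophage arrays were far more spread for this gene than the DC arrays.

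Of the feedback genes other than Tnfaip3, none passed in DCs. Nfkbia lay at -0.87, -0.36 and -0.63 without GFP and at -0.35, 0.06 and -0.06 with GFP, the groups just apart, with a log2 difference of 0.50 ± 0.17 (SE; adjusted p = 0.167). Dusp1 lay at -0.32, -0.61 and -0.54 without GFP and at -0.76, -0.61 and -1.33 with GFP. Its log2 difference of -0.41 had an adjusted p of 0.283 and turned to 0.11 after quantile normalization. Zfp36 differed by 0.11, Il10 by -0.28 and Socs3 by -0.11. The 2 probes of Socs3 pointed opposite ways in this comparison, at -1.12 and 0.90, and neither passed. Altogether 7 of the 10 members had GFP-plus and GFP-minus DC arrays that did not overlap, against 20.1% of all genes.

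Markers of other cells moved with the GFP gate in DCs. The mean of 14 epithelial markers lay between -0.37 and -0.15 without GFP and between 0.12 and 0.36 with GFP. The 9 macrophage markers averaged -4.53 to -3.50 without GFP and -4.68 to -4.43 with GFP. The means of 7 monocyte markers (-0.19 to 0.33 without GFP, -1.003 to -0.49 with GFP), 10 T and innate lymphocyte markers (0.04 to 0.97, then -0.56 to -0.36) and 7 B and plasma cell markers (0.15 to 0.42, then -0.37 to -0.24) were lower with GFP. The median differences of the 3 lists were -0.08, -0.88 and -0.53, against -0.02 over all genes, so the monocyte median hardly moved. In these lists 2, 1 and 1 markers lay above 0. The part of these cells in the results was not tested. In sorted bulk samples, fewer cells of a type and less RNA per cell cannot be told apart.

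In the macrophages no member passed between the GFP gates. Among all genes 0.0541% passed in CD103 CD11b CD64 macrophages and 0.0271% in CD11b CD64 macrophages. Unadjusted limma p-values below 0.05 were found for 2041 and 1367 of all 22180 genes, in that order, and in each population for 1 member, Nr4a3. It lay at -0.96, -1.88 and -0.57 without GFP and at -0.66, -0.11 and 0.15 with GFP in the CD103 CD11b CD64 macrophages. In the CD11b CD64 macrophages it lay at -1.56, -0.69 and -0.01 without GFP and at 0.40, -0.38 and 0.32 with GFP. The arrays overlapped in both, and the log2 differences were 0.93 ± 0.38 (SE; adjusted p = 0.458) and 0.87 ± 0.38 (SE; adjusted p = 0.791). The lowest GFP-minus value in each macrophage population came from an array of low weight.

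Markers of other cells moved with the GFP gate in macrophages too. In the CD103 CD11b CD64 macrophages the mean of T and innate lymphocyte markers lay between 1.57 and 3.32 without GFP and between -0.09 and 0.72 with GFP. Their monocyte markers averaged 0.63 to 1.16 without GFP and -0.48 to 0.03 with GFP. In the CD11b CD64 macrophages monocyte markers averaged 0.48 to 1.16 without GFP and -0.73 to -0.28 with GFP. Dendritic cell markers averaged -0.51 to 0.37 without GFP and -1.35 to -0.47 with GFP in the CD103 CD11b CD64 macrophages. Of these 9 markers 3 had a GFP effect above 0, and the median was -0.78. An unadjusted limma p below 0.05 was found for 5, and none passed. In the CD11b CD64 macrophages dendritic cell markers averaged -0.49 to -0.02 without GFP and -0.58 to -0.15 with GFP. The mean of epithelial markers was higher with GFP in both, at -0.16 to 0.00 against 0.01 to 0.40 and at -0.13 to -0.08 against 0.18 to 0.55. Of these 14 markers, 8 had a GFP effect above 0 in each population, with medians of 0.07 and 0.13, and none passed. The part of these cells in the Nr4a3 values was not tested.

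Tnf hardly differed by GFP in macrophages: the log2 differences were -0.04 with a 95% interval from -0.79 to 0.72 and -0.11 with an interval from -0.87 to 0.65. Tnfaip3 differed by 0.15 in the CD103 CD11b CD64 macrophages. In the CD11b CD64 macrophages it lay at -0.14, 0.07 and -0.03 without GFP and at 0.64, 0.40 and 0.34 with GFP, without overlap, yet the difference of 0.49 did not pass (adjusted p = 0.884). Dusp1 in the CD103 CD11b CD64 macrophages lay at 0.31, 0.26 and 0.32 without GFP and at 0.05, 0.004 and 0.09 with GFP, also without overlap, with a difference of -0.25 that did not pass. Groups without overlap were found for 2 members in the first population and 1 in the second, where 13% and 15.9% of all genes had them.

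**Figure D2:**
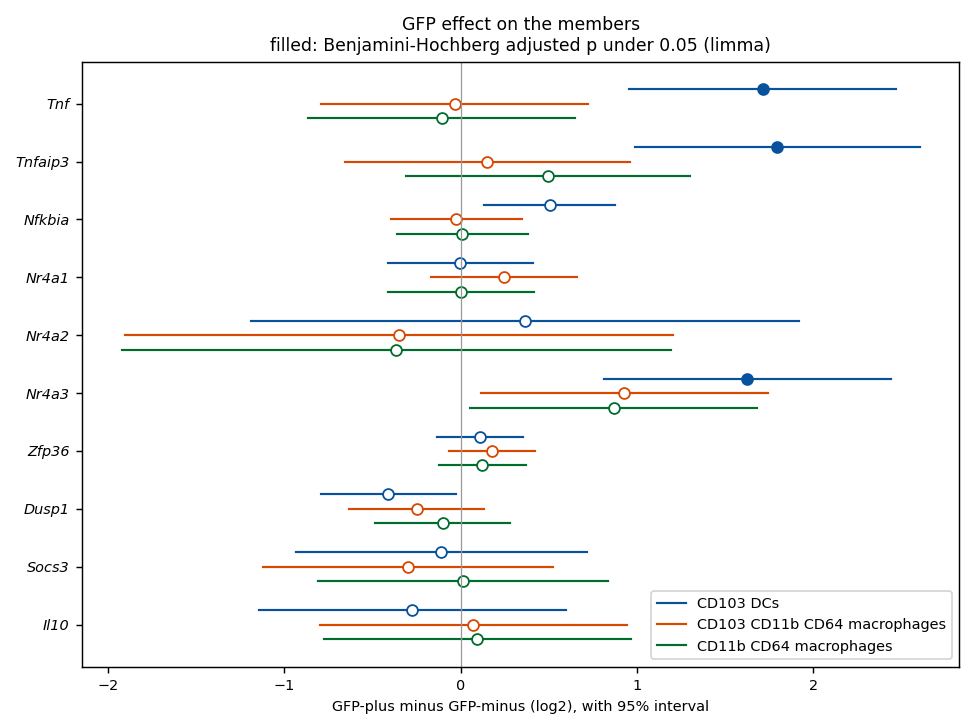
GFP-plus minus GFP-minus log2 difference (x axis) of the 10 members (y axis) in the 3 populations, with 95% intervals from limma; filled points passed an adjusted p of 0.05. The 3 filled points are Tnf, Tnfaip3 and Nr4a3 in DCs, and the intervals of Nr4a3 lie above 0 in all 3 populations.

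The difference between populations was tested directly, as the GFP effect in DCs minus the mean GFP effect in both macrophages. No member passed in limma, against 1.33% of all genes. An unadjusted p below 0.05 was found for 3 members and for 3670 of all 22180 genes. Tnf had a log2 difference of effects of 1.78 ± 0.43 (SE; adjusted p = 0.0578), Tnfaip3 of 1.47 ± 0.46 (SE; adjusted p = 0.123) and Nfkbia of 0.51 ± 0.21 (SE; adjusted p = 0.239). Tnf passed with array weights (adjusted p = 0.0307), and also without replicate 3 of the GFP-plus DCs (2.27), of the GFP-minus CD103 CD11b CD64 macrophages (1.92) or of the GFP-minus CD11b CD64 macrophages (1.86), or without replicate 1 of the GFP-plus CD103 CD11b CD64 macrophages (1.81). Tnfaip3 passed only without GFP-minus DC replicate 2 (1.99). For Nr4a3 the difference of effects was 0.73, with a 95% interval from -0.27 to 1.72.

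The mean of the 3 GFP effects was added after the values had been seen, because Nr4a3 lay higher with GFP in each population. Nr4a3 alone passed, at a mean log2 difference of 1.14 ± 0.22 (SE; adjusted p = 0.0386 in limma), where 0.41% of all genes passed. The call was kept in 3 of 18 fits that each left out 1 array, those without replicate 3 of either GFP-minus macrophage group or replicate 1 of the GFP-plus CD103 CD11b CD64 macrophages. Its value ran from 0.99 to 1.26 and its adjusted p up to 0.0962. Since the comparison was chosen on these arrays, it is no independent evidence of its direction.

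The larger differences in the set lay between cell types. Without GFP, 8 of the 10 members differed between DCs and the mean of both macrophage populations, 2 higher and 6 lower, where 4.71% of all genes passed. With GFP, 3 were higher and 3 lower, where 11.2% of all genes passed. The 2 comparisons use different arrays. Members whose DC and macrophage arrays did not overlap numbered 9 without GFP and 7 with GFP, against 9.31% and 14.6% of all genes.

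Il10 had the largest measured difference of the 10 in both gates. It lay between -4.11 and -3.61 on the 6 DC arrays and between -0.72 and 1.27 on the 12 macrophage arrays. DCs were lower by 18.5-fold without GFP (log2 difference -4.21 ± 0.35 SE; adjusted p = 2.03e-06) and by 23.7-fold with GFP (log2 difference -4.57 ± 0.35 SE; adjusted p = 5.99e-07). The 3 GFP-plus DC arrays agreed within an SD of 0.013, a spread that in values without an absolute level cannot be told apart from a probe at its lower limit; both folds would then be lower bounds. Socs3 followed the same order, at -1.95, -2.08 and -2.38 in GFP-minus DCs and -1.16, -2.98 and -2.59 in GFP-plus DCs, and the lowest macrophage array at -0.39. Its log2 differences were -2.57 ± 0.33 and -2.54 ± 0.33 (SE), and its second probe alone, at -1.63, did not pass with GFP (adjusted p = 0.0601).

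Nr4a2 stood on the other side. Its 6 DC arrays lay between 2.88 and 3.35 and its macrophage arrays between -2.34 and 0.72, a log2 difference of 3.44 ± 0.63 without GFP and 4.16 ± 0.63 with GFP (SE; adjusted p = 0.0037 and 0.00046). The 2 lowest macrophage values, -2.34 and -2.19, were those of low-weight arrays. With only the compared groups fitted, the difference without GFP had an adjusted p of 0.0547. Nr4a1 was higher in DCs by 0.92 ± 0.17 without GFP and 0.79 ± 0.17 with GFP (SE). Nr4a3 was higher by 1.81 ± 0.33 (SE; adjusted p = 0.0022) with GFP, while without GFP the difference of 1.08 did not pass (adjusted p = 0.0858); it passed without replicate 3 of either GFP-minus macrophage group (1.22 and 1.27), after quantile normalization (1.10) and with array weights (0.92).

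Tnf and Tnfaip3 passed between cell types among GFP-minus cells and did not pass among GFP-plus cells; the change between the gates is the difference of effects given above, which did not pass. Without GFP the log2 difference of Tnf was -2.21 ± 0.31 (SE; adjusted p = 0.00035). With GFP its difference was -0.42, with a 95% interval from -1.08 to 0.23, and it ran from -0.83 to 0.06 as single arrays were left out. Without GFP that of Tnfaip3 was -2.12 ± 0.33 (SE; adjusted p = 0.00083), and with GFP it was -0.65, with an interval from -1.35 to 0.05. Nfkbia had a difference of -0.69 ± 0.15 without GFP (SE; adjusted p = 0.0143), a call lost without GFP-minus DC replicate 1 (-0.56) or replicate 3 (-0.68) and with only the compared groups fitted (adjusted p = 0.0551). Its difference with GFP was -0.17.

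Dusp1 was lower in DCs, at -0.69 ± 0.15 without GFP and -0.93 ± 0.15 with GFP (log2, SE; adjusted p = 0.0163 and 0.0011). The first call was lost without GFP-minus DC replicate 2 (-0.63) or replicate 3 (-0.67) and without the 4 low-weight arrays (-0.64), and the second after quantile normalization (-0.49; adjusted p = 0.0995). Zfp36 varied least, over a range of 0.49 on all 18 arrays, and its differences of -0.22 and -0.26 did not pass.

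**Figure D3:**
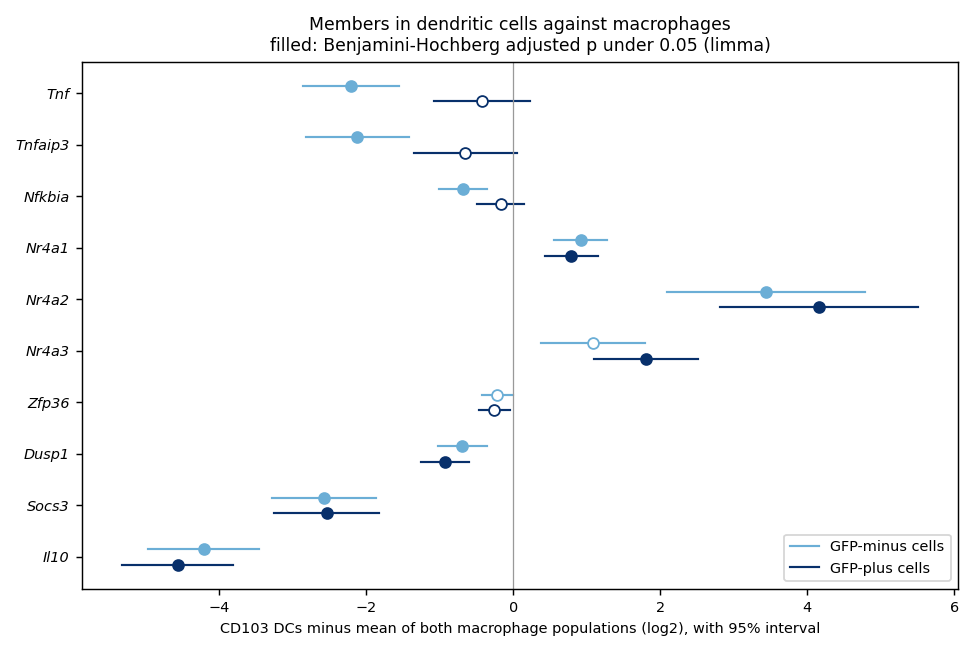
CD103 DCs minus the mean of both macrophage populations (x axis, log2) for the 10 members (y axis), in GFP-minus and GFP-plus cells, with 95% intervals from limma; filled points passed an adjusted p of 0.05. Il10 and Socs3 lie far to the left and Nr4a2 far to the right in both gates, while Tnf, Tnfaip3 and Nfkbia are filled only in GFP-minus cells.

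The order of the 6 groups was read with the overlap of neighbouring groups. For Tnf and Tnfaip3 the 4 macrophage groups and the GFP-plus DCs each overlapped their neighbour in the order, and GFP-minus DCs lay apart below them. For Nr4a3 the GFP-plus DCs lay apart above all others, and the remaining groups overlapped in turn. For Nr4a2 the GFP-plus DCs came first and the GFP-minus DCs second, each apart from the next. For Nfkbia both CD103 CD11b CD64 macrophage groups overlapped each other, and GFP-minus DCs lay apart at the lower end.

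Between the macrophage populations, taken over both gates, no member passed, and 0.0721% of all genes did. Nfkbia was 0.40 ± 0.12 (SE; adjusted p = 0.585) and Socs3 0.62 ± 0.27 (SE; adjusted p = 0.859) on the side of the CD103 CD11b CD64 macrophages. These were the 2 members with an unadjusted limma p below 0.05, which 1222 of all 22180 genes had. T and innate lymphocyte markers averaged up to 3.32 on the GFP-minus arrays of that population and at most -0.08 on those of the CD11b CD64 macrophages; their part in these values was not tested.

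Other genes of the same pathways were read from lists, by the number that passed in GFP-plus against GFP-minus DCs, where 1.58% of all genes passed (72 higher and 279 lower of 22180). The single list genes named here and below were not followed under the alternatives. Over all genes the count of 351 became 48 after quantile normalization and 85 with only the DC groups fitted. Of 4 measured NF-kB subunits, 1 was higher, Relb, which encodes a subunit of the non-canonical pathway, at 1.31 ± 0.30 (SE; adjusted p = 0.0444). All 4 lay above 0 with a median of 0.98, where 47.1% of all genes lay above 0. By GFP all 4 also lay above 0 in CD103 CD11b CD64 macrophages (median 0.32) and in CD11b CD64 macrophages (median 0.41). None of the 4 passed there or in the difference of effects. Of 16 NF-kB target cytokine and adhesion genes, Il12b was higher and Il1a lower. Il12b, the p40 chain of interleukins 12 and 23, differed by 2.99 ± 0.35 (SE; adjusted p = 0.00073). Il1a, which encodes interleukin 1 alpha, differed by -2.22 ± 0.36 (SE; adjusted p = 0.0096). Of 14 other NF-kB inhibitors and of 14 TNF ligand, receptor and signalling genes, none passed in limma. An unadjusted p below 0.05 was found for 6 and 1 of them, and for 3414 of all 22180 genes. List genes with the smallest p over all GFP comparisons, macrophages included, had these DC differences. They were Itch (-1.98) and Tnip3 (0.93) among the inhibitors and Birc2 (-1.04) and Traf1 (1.38) among the signalling genes.

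Of 19 immediate-early genes, 2 were lower in GFP-plus DCs and none higher, where 279 of all 22180 genes were lower. Fos, the AP-1 subunit, differed by -1.40 ± 0.25 (SE; adjusted p = 0.0159) and Btg2, an antiproliferative gene, by -0.74 ± 0.17 (SE; adjusted p = 0.0439). Nr4a3 was thus higher in the cells where Fos was lower. Of 8 other dual-specificity phosphatases 1 was lower, Dusp7, at -1.05 ± 0.22 (SE; adjusted p = 0.0317). None of 7 other SOCS genes, 8 other regulators of mRNA decay or 10 genes of interleukin 10 signalling and transcription passed in limma. An unadjusted p below 0.05 was found for 1, 1 and 2 of them, where 3414 of all 22180 genes had one. The genes of these lists with the smallest p over all GFP comparisons, which for some was reached in macrophages, had DC differences as follows: Cish (-0.06) and Socs7 (-1.32), Rc3h2 (-0.64) and Zfp36l2 (-1.52), and Il10rb (-1.31) and Prdm1 (-0.47). None of 7 heat shock genes, read as a sign of stress, passed or had an unadjusted p below 0.05 in this comparison. No gene of these lists passed by GFP in either macrophage population. Of all genes 0.0541% passed in CD103 CD11b CD64 and 0.0271% in CD11b CD64 macrophages, so few that this count tells nothing about the lists. By GFP, the heat shock median was 0.80 in CD103 CD11b CD64 macrophages (6 of 7 above 0) and -0.53 in CD11b CD64 macrophages (1 of 7). Over all genes the medians were 0.016 and 0.011, with 52.8% and 51.9% above 0. An unadjusted limma p below 0.05 was found for 1 and 0 of the 7, and for 2041 and 1367 of all 22180 genes. The list mean ran from 0.10 to 1.15 on the GFP-plus arrays of the first population and from -1.38 to 0.14 on those of the second. Between these populations all 7 were higher in the first, with a median of 0.70. None passed, and 4 had an unadjusted limma p below 0.05, as did 1222 of all 22180 genes.

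**Figure D4:**
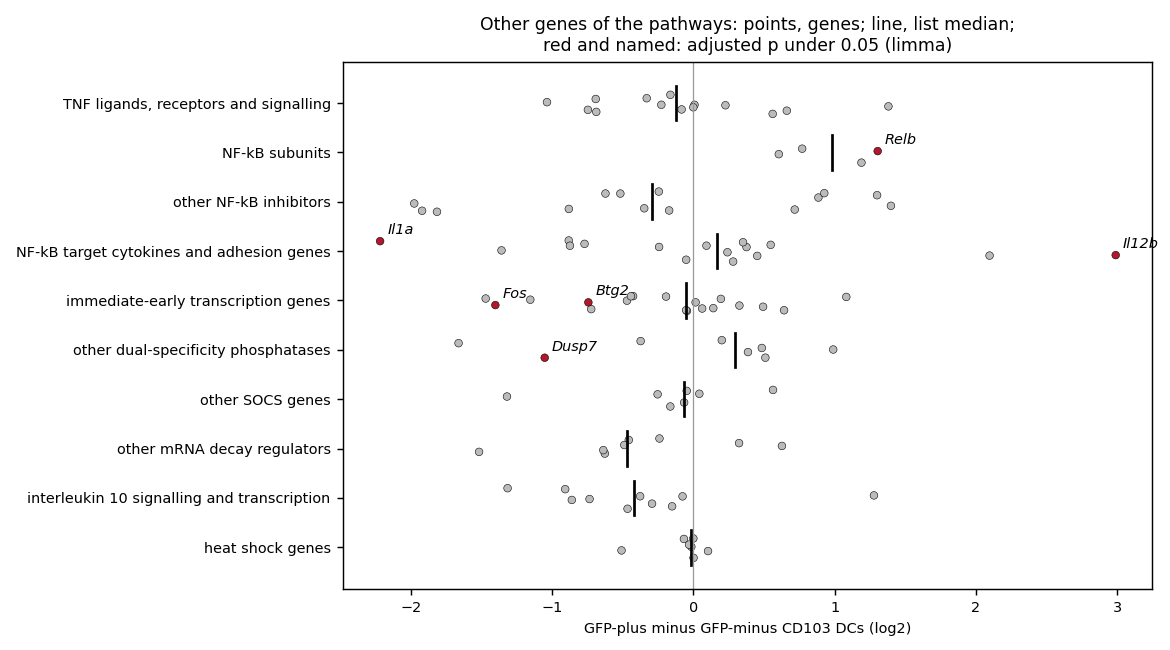
GFP-plus minus GFP-minus log2 difference in CD103 DCs (x axis) for the other genes of each pathway list (y axis); points are genes, black lines are list medians, and red named points passed an adjusted p of 0.05 in limma. The 4 NF-kB subunits all lie to the right of 0, and Il12b and Il1a lie at opposite ends of the target list.

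Most NF-kB target genes on the list were lower in DCs than in macrophages. Of all 22180 genes, 4.71% passed without GFP (495 higher and 550 lower) and 11.2% with GFP (596 higher and 1883 lower). Without GFP, 11 of the 16 NF-kB target genes were lower in DCs and 1, Il12b, higher, with a list median of -1.87 against -0.03 over all genes. With GFP, 9 were lower and 1 higher, with a median of -2.35. The members furthest from 0, chosen after their values were seen, were Ptgs2 (-4.21 and -4.22), which encodes cyclooxygenase 2, and Vcam1 (-3.10 and -4.24), an adhesion molecule. Of the interleukin 10 list 3 of 10 genes were lower in DCs without GFP and 4 with GFP. Among them were Maf (-3.15 and -4.04) and Prdm1 (-3.64 and -4.77), transcription factors known to act on Il10. Of the immediate-early list 1 was higher and 5 lower without GFP, and 1 higher and 9 lower with GFP; the higher one was Egr3 (2.35 and 2.01) in both.

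Genes whose pattern was most like each member were named by Pearson's r over the 18 arrays, which share the 6 groups, so that r includes the differences between groups. Il10 was most like Fcgr4 (r = 0.98) and Pf4 (r = 0.98), and Socs3 most like Selenop (r = 0.96), Ccl4 (r = 0.95) and Fcgr1 (r = 0.95). Dusp1 was most like Cfp (r = 0.94), Il1b (r = 0.94) and Plk2 (r = 0.94). Tnf was most like Ninj1 (r = 0.90) and Gadd45b (r = 0.89), and Tnfaip3 most like Cd63 (r = 0.93) and Ppp1r15a (r = 0.90). Nr4a1 was most like Sri (r = 0.93), Trerf1 (r = 0.93) and Egr3 (r = 0.93), Nr4a2 most like Adam8 (r = 0.96), and Nr4a3 most like Tbc1d8 (r = 0.94). Nfkbia was most like Rassf4 (r = 0.88), then Gm10499 (r = 0.86) and Bcl3 (r = 0.85), and Zfp36 most like Man1a (r = 0.88). With group means removed, Nr4a2 and Nr4a3 had r = 0.92 over the 18 arrays; both were low on the low-weight GFP-minus macrophage arrays, whose part in this value was not tested.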

How the data were processed

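Expression was measured on 18 arrays, 3 in each of 6 groups. The authors deposited log2 values that are centred on each probe's median over the 18 arrays; the log base was inferred from the spread of the values and is not stated, so fold changes rest on base 2. Per the labels' protocols, NuGEN's WT Ovation Pico kit amplified 1 ng of RNA from each. The sources used here name no software or normalization. Of 33793 probes, 23521 had 1 gene symbol and were averaged to 22180 genes; the 2 Socs3 probes are also given singly. Group means were estimated in 1 linear model over the 18 arrays in limma 3.58.1 (R 4.3.3), with two-sided p-values adjusted by Benjamini-Hochberg over all genes and a threshold of 0.05. The 3 arrays per group limit the precision. The members and lists were chosen with earlier results of these data known. List genes were named if they passed in a GFP comparison, otherwise by the 2 smallest p; likeness names up to 3 genes of highest r. Alternatives are given in the closing section.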

Additional observations from a re-analysis of the deposited data

Results flagged for a closer look

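In 3 pathway genes, named because they passed, the GFP effect differed between DCs and macrophages by the direct test in limma. Across all genes 1.33% passed this test, 295 of 22180, and 50 passed after quantile normalization. Il1a and Il12b came from the 16 NF-kB target genes and Fos from the 19 immediate-early genes. No gene of the other pathway lists passed, and these 3 genes were not followed under the alternatives. For Il1a the GFP effect in DCs minus the mean effect in both macrophages was -3.05 ± 0.44 (SE; adjusted p = 0.0049), with GFP effects of -2.22 in DCs, 0.98 in CD103 CD11b CD64 macrophages and 0.68 in CD11b CD64 macrophages. For Fos the difference of effects was -1.66 ± 0.31 (SE; adjusted p = 0.0207), with effects of -1.40, 0.18 and 0.34 in the same order. For Il12b it was 2.28 ± 0.43 (SE; adjusted p = 0.0219), with effects of 2.99, 1.32 and 0.09. None of the 10 members passed this test.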

How the results depend on the processing

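The filter on dim probes was not run, because the values hold no absolute level. Of the member counts, those for GFP in either macrophage population, for DCs against macrophages in both gates and between the macrophage populations stayed within 1.5 times of the main count under every alternative run. The 3 members that passed by GFP in DCs became 1 after quantile normalization, 1 with only the compared groups fitted and 1 without the 4 arrays of lowest weight, and 0 to 3 as single arrays were left out. The count of 0 for the difference of effects became 1 with array weights, and 0 to 1 as single arrays were left out. The 1 member that passed in the mean GFP effect, a comparison chosen after seeing the data, became 2 after quantile normalization and 0 to 1 as single arrays were left out. Over all genes the count by GFP in DCs was 351; it was 48 after quantile normalization, 85 with only the DC groups fitted, and 118 to 711 as single arrays were left out. The causes were not tested.

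Replicate numbers were not used to pair the samples in the main fit, and whether arrays of the same number belong together was not tested. Within a population, arrays of the same number had correlations of their deviations from -0.14 to 0.25. Over all populations the median was 0.061 and the highest 0.34 for 45 pairs of the same number, 13 of them over 0.1, against a median of -0.017 for 90 pairs of different numbers, 12 of them over 0.1. With a replicate block, the 3 members that passed by GFP in DCs remained 3 in number, and Tnf passed in the difference of effects (1 member; 1.78, adjusted p = 0.0324), while the count over all genes by GFP in DCs was 411.

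No member that passed a test changed sign under any alternative. Some differences that had not passed changed sign, and none of them passed afterwards. After quantile normalization these were Nr4a1 0.041, Dusp1 0.11, Socs3 0.35 and Il10 0.32 (GFP effect in DCs), Tnf 0.013 (GFP effect in CD103 CD11b CD64 macrophages), Nfkbia -0.13, Nr4a1 -0.19 and Socs3 -0.14 (GFP effect in CD11b CD64 macrophages), Nr4a1 0.090, Zfp36 0.063, Dusp1 0.31 and Il10 0.18 (difference of effects), Nr4a1 0.0080 and Nr4a2 0.16 (difference between macrophage populations) and Nr4a1 -0.019 and Il10 0.20 (mean GFP effect). With each array centred on its median these were Nr4a1 0.0022 (GFP effect in DCs). With array weights these were Nr4a1 0.036 (GFP effect in DCs), Nfkbia -0.056 and Il10 -0.12 (GFP effect in CD11b CD64 macrophages), Nr4a1 0.016, Zfp36 0.013 and Socs3 -0.072 (difference of effects) and Tnfaip3 0.034 (difference between macrophage populations). Without the 4 arrays of lowest weight these were Nr4a1 0.043 (GFP effect in DCs), Nr4a1 -0.032 (GFP effect in CD103 CD11b CD64 macrophages), Tnf 0.046, Nfkbia -0.031, Nr4a1 -0.10 and Dusp1 0.026 (GFP effect in CD11b CD64 macrophages), Nr4a1 0.11, Zfp36 0.067 and Socs3 -0.49 (difference of effects), Tnfaip3 0.077 (difference between macrophage populations) and Nr4a1 -0.031 and Il10 0.055 (mean GFP effect). With single probes these were Socs3 0.90 (GFP effect in DCs), Socs3 -0.28 (GFP effect in CD11b CD64 macrophages), Socs3 -1.19 (difference of effects) and Socs3 0.067 (mean GFP effect). The GFP effect in DCs ranged, as single arrays were left out, for Nr4a1 from -0.15 to 0.096 and Socs3 from -0.65 to 0.26. The difference of effects ranged, as single arrays were left out, for Socs3 from -0.51 to 0.40 and Zfp36 from -0.089 to 0.021. The difference between DCs and macrophages with GFP ranged, as single arrays were left out, for Tnf from -0.83 to 0.061. The GFP effect in CD103 CD11b CD64 macrophages ranged, as single arrays were left out, for Tnf from -0.30 to 0.15, Nfkbia from -0.096 to 0.061, Nr4a2 from -1.17 to 0.29, Il10 from -0.24 to 0.26 and Tnfaip3 from -0.0034 to 0.32. The mean GFP effect ranged, as single arrays were left out, for Il10 from -0.17 to 0.12 and Nr4a2 from -0.43 to 0.095. The difference between macrophage populations ranged, as single arrays were left out, for Tnfaip3 from -0.12 to 0.042, Nr4a1 from -0.14 to 0.064 and Nr4a2 from -0.52 to 0.36. The GFP effect in CD11b CD64 macrophages ranged, as single arrays were left out, for Tnf from -0.28 to 0.046, Nfkbia from -0.12 to 0.14, Nr4a1 from -0.10 to 0.13, Dusp1 from -0.22 to 0.026, Nr4a2 from -1.29 to 0.22, Socs3 from -0.29 to 0.24 and Il10 from -0.31 to 0.58.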
